A study of Hordeum vulgare with 64 samples.

Results

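The late salt-repressed leaf genes were 30 of the 39734 barley genes with HORVU identifiers, in tables of 43050 rows. They were chosen from the measured values by a fixed rule. Expression was given as FPKM, the sequenced fragments of a gene scaled by its length and by the size of the library, and a change was the difference of mean log2(FPKM + 1) from the control of the same variety and tissue. A member fell by at least 2 in leaves after 10 d of salt in both varieties, averaged at least 1 FPKM over the 4 unsalted control roots of the salt experiment, and moved by no more than 1 in either direction in roots waterlogged for 72 h. In all, 131 HORVU genes met the leaf criterion. Of these, 79 stayed under 1 FPKM in the control roots and 22 moved too far in the waterlogged roots, which left 30, so that the limit of 200 members was not reached. The root limit was set on the average, so that a member could be missing from 1 variety. HORVU3Hr1G113740 was at 6.60 and 4.42 FPKM in NN and 0.0689 and 0 in TX salt control roots.

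Leaf and root RNA was profiled in 2 barley varieties, the stress-sensitive NasoNijo (NN) and the stress-tolerant TX9425 (TX), grown as seedlings and stressed at the three-leaf stage. In the salt experiment, samples were taken from unstressed plants (control, 0 h) and from plants kept in salt for 1 h, for 24 h or for 10 d. In the waterlogging experiment they were taken from unstressed plants and from plants waterlogged for 1 h, for 72 h or for 2 w. Each combination of variety, organ and time had 2 replicates, giving 64 libraries in 32 groups. Unstressed plants as old as those of 10 d and 2 w are not among the groups, so that stress and plant age cannot be told apart at the late times. The samples were whole leaves or roots, in which fewer cells of a type and less RNA per cell cannot be told apart. The study's methods call its replicates biological, but nothing in the labels says that they came from separate plants or pots. The p-values below cover the spread among these libraries alone.

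Salt acts on leaves in an early phase, when water uptake drops and growth slows within minutes to hours, and in a later phase, when sodium and chloride build up in the blades and older leaves senesce. Waterlogging deprives roots of oxygen first, while leaves are affected later through reduced supply of water, nitrogen and hormones. Barley is among the more salt-tolerant cereals and among the more sensitive to waterlogging. The tables used here pair none of the member identifiers with a gene name, and none matched the RefSeq gene table of the MorexV3 assembly, so members are given by identifier and no role is assigned to them. The digit after HORVU is the chromosome by the convention of these identifiers. Members lay on all chromosomes, with 7 each on chromosomes 2 and 3, 4 on chromosome 7, 3 each on chromosomes 1 and 4, 2 each on chromosomes 5 and 6, and 2 on unplaced sequence.

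Several libraries stood apart. The 91 genes at 1 FPKM or more in every salt root and at 0.1 FPKM or less in every salt leaf reached a median no higher than 0.0587 FPKM in any waterlogging leaf library and one of 4.55 to 12.7 FPKM in the waterlogging roots, and the 87 genes with the opposite pattern were at 6.14 to 31.0 and 0 FPKM, which matched the labelled organs. Total FPKM was 383344 to 437568 in the salt and 408505 to 596521 in the waterlogging libraries. In 5 waterlogging leaf libraries (NN 2 w replicate 2, both NN 72 h, TX 1 h replicate 1 and TX 72 h replicate 2) over 10% of the FPKM fell in ENSRNA rows, up to 36.1%, as did 14.6% in 1 root library, TX 1 h replicate 1. Of 32 genes seen in waterlogging roots of TX but not of NN, 13 exceeded 0.5 FPKM in the salted NN leaf library of 1 h, replicate 1, against 1 in its replicate 2, and 8 did so in NN roots of 10 d, replicate 2, against 0 in replicate 1. Of 40 genes seen only in NN, 7 and 3 exceeded 0.5 FPKM in the TX roots of 10 d, and 3 did so in TX salt roots of 1 h, replicate 2. Relative depth, read from the lowest values, ranged from 0.201 to 1.06 of a reference library, and the number of reads is unknown. Beyond the values without single libraries given below, the part of these libraries in the results was not tested.

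After 10 d of salt, member RNA was reduced to a small remainder of the control in leaves of both varieties. The log2 change ranged from -4.62 to -2.08 in NN, with a median of -2.98, and from -3.41 to -2.005 in TX, with a median of -2.33. In FPKM, the 10 d mean was a median 7.33% of the control mean in NN and 16.2% in TX, and was under 10% for 20 members in NN and 9 in TX. Of the 30 members, 25 had the more negative change in NN. These changes are what chose the members and were not tested. A change of -2 or lower was found in 3.93% of all genes in NN and 1.03% in TX. The least changed member was HORVU2Hr1G118100, at -2.005 in TX, and the first gene outside was HORVU2Hr1G033420, at -1.998. The lowest control root level inside was 1.15 FPKM (HORVU1Hr1G007630) and the highest outside 0.870 FPKM (HORVU5Hr1G104850). For the waterlogged roots, HORVU0Hr1G012860 was just inside, at -0.99 in NN, and HORVU5Hr1G106610 just outside, at -1.03.

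HORVU7Hr1G117850 had the strongest fall by the weaker variety. Its NN leaves were at 15.2 and 15.4 FPKM in the controls, 5.64 and 30.4 at 1 h, 6.60 and 3.51 at 24 h and 0.426 and 0 at 10 d. Its TX leaves were at 26.1 and 10.7, 34.3 and 27.5, 5.06 and 4.18, and 1.31 and 0.208 FPKM at the same times. The reduction was thus already visible at 24 h in every library, and the 1 h libraries of NN disagreed with each other. HORVU2Hr1G002720 behaved differently at 24 h. Its NN leaves went from 61.1 and 47.4 FPKM in the controls to 85.8 and 67.9 at 24 h and 2.21 and 1.16 at 10 d, and its TX leaves from 71.4 and 25.2 to 66.95 and 81.2 and 6.23 and 2.53. No library of 24 h was below the lower control of its variety, and all 4 were low at 10 d.

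The most abundant member was HORVU0Hr1G003270, at 2452 and 1952 FPKM in NN and 1455 and 902 in TX control leaves. After 10 d it was at 149.7 and 51.95 FPKM in NN and 229 and 156 in TX, having stood at 1469 and 1635 and 1457 and 2198 at 24 h. All 4 libraries of 10 d were below all 12 earlier ones. The next most abundant, HORVU3Hr1G112010, went from 539 and 665 to 164 and 122 FPKM in NN and from 779.8 and 628 to 153 and 155 in TX. HORVU3Hr1G051650 went from 191 and 212 to 40.7 and 22.7 in NN and from 175 and 171 to 36.4 and 43.6 in TX. Both remained well expressed after the fall, unlike most members. Over all members, the mean of the 4 control leaves ranged from 10.4 to 1690.1 FPKM (median 22.7) and that of the 4 leaf libraries of 10 d from 0.164 to 148 FPKM (median 2.98).

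The replicates behind the rule were uneven. In the TX leaf controls, 23 of the 30 members were higher in replicate 1 than in replicate 2, and in NN leaves of 10 d, 29 were higher in replicate 1. The share over all genes is not given here. The 87 leaf genes described above, none of them members, leaned the same way. Their medians were 15.3 and 13.2 FPKM in the TX controls and 7.27 and 4.79 in NN leaves of 10 d. HORVU5Hr1G095580 was at 22.4 and 0.808 FPKM in the TX controls, at 1.44 and 0.701 at 1 h, 5.05 and 2.95 at 24 h and 0.114 and 0.136 at 10 d, so that 1 of its 2 control libraries was below both libraries of 24 h. Without TX control replicate 2, 50 genes met the rule, 27 of them among the 30. Without TX control replicate 1, 29 met it, 18 of them among the 30.

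**Figure D1:**
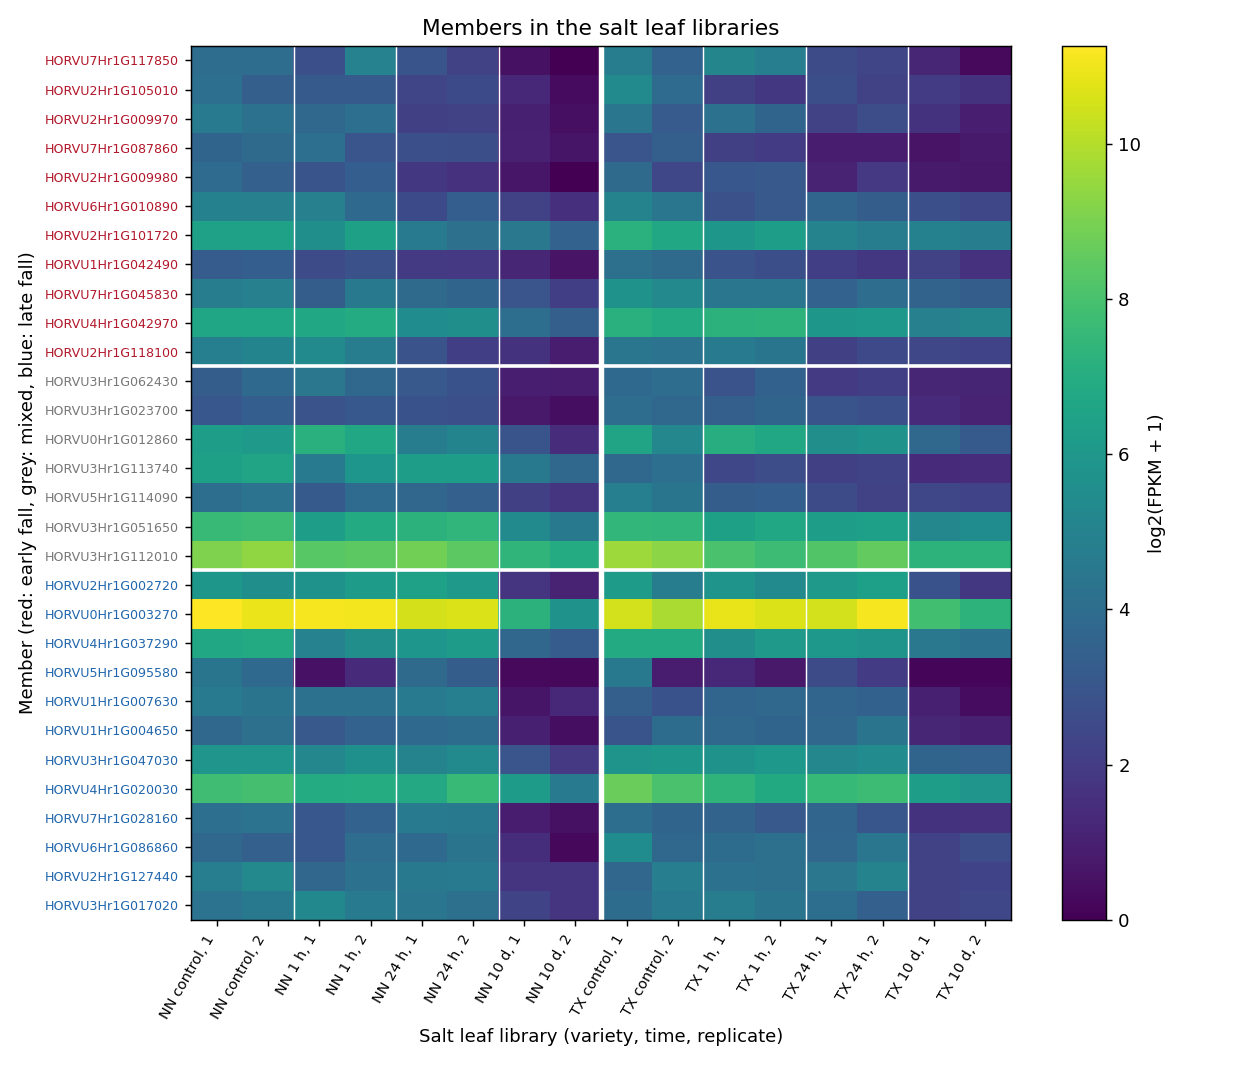
Expression of the 30 members in the 16 salt leaf libraries as log2(FPKM + 1), with libraries on the x axis by variety, time and replicate and members on the y axis, grouped by whether they had fallen at 24 h (11 early fall, 7 mixed, 12 late fall). The columns of 10 d are the darkest for both varieties, and those of 24 h are reduced most clearly in the upper block.

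Members differed in how far they had fallen at 24 h. The group names below rest on that time alone and do not date the start of the fall. At 24 h, 11 members were down by at least 1 in both varieties (early fall), and 12 were down by less than 1 or not at all in both (late fall). The other 7 were below the controls in both varieties, but by at least 1 in 1 variety only (mixed). The median change of the early group at 24 h was -1.47 in NN and -1.75 in TX, and that of the late group was -0.28 and -0.45. At 10 d the early group was at -2.94 and -2.14 and the late group at -3.41 and -2.33, values that chose the members and are not compared. At 1 h, a change of -1 or lower was found for 5 members in NN, where 6.45% of all genes had one, and 11 in TX, against 10.8% of all genes. At 24 h it was found for 12 in NN, against 6.18% of all genes, and 17 in TX, against 14.1%. All these differences share the control libraries that chose the members, so nothing is read from these shares.

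Within the late group, HORVU5Hr1G095580 was low in NN at 1 h, at 0.481 and 1.55 FPKM, after 19.6 and 13.3 in the controls, and was back at 13.8 and 9.12 at 24 h before reaching 0.238 and 0.168 at 10 d. HORVU4Hr1G037290 also dipped at 1 h, to 30.8 and 45.9 FPKM in NN and 46.5 and 64.5 in TX, from 107 and 117 and 118 and 117. It stood at 60.1 and 73.5 and 63.2 and 55.1 at 24 h. A low value at 1 h was therefore not always followed by a lower one at 24 h. HORVU3Hr1G113740, in the mixed group, was expressed at unlike levels in the 2 varieties, with 83.9 and 95.4 FPKM in NN and 12.7 and 16.4 in TX control leaves. At 24 h it was at 77.4 and 77.9 in NN and 3.37 and 3.89 in TX.

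The step from 1 h to 24 h used neither the control nor the 10 d leaves and could be tested. A gene was called where limma gave an adjusted p under 0.05 over all genes of the fit and a log2 change beyond 1. In NN leaves, 7 of the 30 members fell, against 2.93% of all 19782 genes tested, and 1 rose, against 3.83%. In TX leaves, 8 members fell, against 3.66% of all genes, and 0 rose, against 2.78%. The same 5 members fell in both, all from the early or mixed groups, which were defined with the same 24 h libraries. The median over the 30 was -0.21 in NN and -0.44 in TX, against 0.07 and -0.04 over all genes. Of the 101 genes that had the same fall at 10 d but were not members, 24 fell in NN and 20 in TX, so falling between 1 h and 24 h was not limited to members.

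Among the 5, HORVU2Hr1G118100 had the largest changes. It was at 41.1 and 25.98 FPKM at 1 h and 6.40 and 3.21 at 24 h in NN (log2 change -2.59 ± 0.32 (SE), adjusted p = 9.43e-04). In TX it went from 25.02 and 19.5 to 3.38 and 4.62 FPKM (-2.22 ± 0.32 (SE), adjusted p = 0.00232). The libraries of the 2 times did not overlap in either variety, and in TX the 24 h level was already that of 10 d, at 4.32 and 3.86 FPKM. HORVU4Hr1G042970 had changes of nearly the same size in both varieties, -1.27 ± 0.21 (SE), adjusted p = 0.00415 in NN and -1.27 ± 0.21 (SE), adjusted p = 0.00437 in TX. Its leaves held 104 and 122 and then 43.6 and 48.3 FPKM in NN, and 148 and 156 and then 60.98 and 63.99 in TX.

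HORVU2Hr1G009970 fell from 12.7 and 16.5 to 3.40 and 3.63 FPKM in NN (-1.78 ± 0.39 (SE), adjusted p = 0.0157) and from 17.5 and 11.3 to 3.57 and 5.25 in TX (-1.50 ± 0.39 (SE), adjusted p = 0.0341). HORVU2Hr1G101720 fell by 1.59 on the log2 scale in NN and by 1.20 in TX, and HORVU3Hr1G062430 by 1.13 and 1.19. Of the 5, HORVU2Hr1G118100 and HORVU4Hr1G042970 were called in both varieties under every alternative run. In TX, HORVU2Hr1G009970 and HORVU2Hr1G101720 were not called without a filter on low genes or without any 1 of the 4 libraries. HORVU2Hr1G009970 was also not called in TX with a pseudocount of 0.1. In NN, HORVU2Hr1G009970 was not called without any 1 library, and HORVU2Hr1G101720 was not called without replicate 2 of 1 h or of 24 h. HORVU3Hr1G062430 was lost without 3 of 4 in each variety. Outside the 5, HORVU7Hr1G117850 had a larger change in TX, from 34.3 and 27.5 to 5.06 and 4.18 FPKM (-2.50 ± 0.63 (SE), adjusted p = 0.0296), and was not called in NN (-1.30 ± 0.63 (SE), adjusted p = 0.212). The member that rose in NN was HORVU7Hr1G028160, from 7.44 and 10.7 to 24.1 and 22.5 FPKM (1.29 ± 0.27 (SE), adjusted p = 0.0119), where the TX leaves were at 10.96 and 7.81 and then 11.9 and 7.19. It was a late member, above its 1 h level at 24 h and nearly lost at 10 d in NN, at 0.859 and 0.400 FPKM. The counts depended on single libraries. In NN, fewer members were called without 1 h replicate 1 (the library with TX-typical genes) or without either 24 h library. More were called without 1 h replicate 2, with more of them higher. In TX, 3 were called without 1 h replicate 1 and 2 without each of the other 3 libraries.

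**Figure D2:**
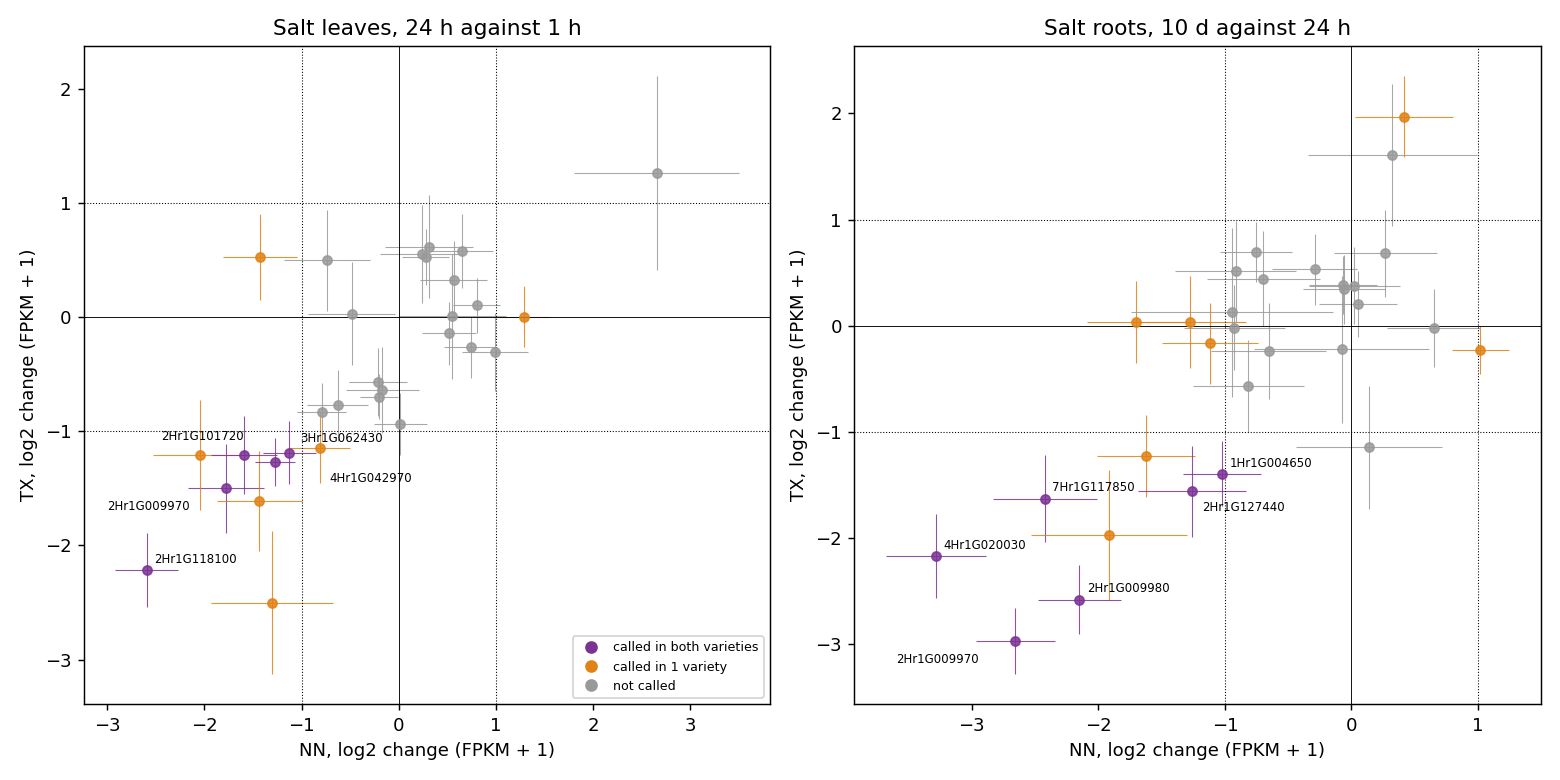
Log2 change of each member in NN (x axis) and TX (y axis), with standard errors, between 1 h and 24 h in salt leaves (left) and between 24 h and 10 d in salt roots (right), with dotted lines at changes of 1. The 5 leaf members and the 6 root members called in both varieties lie at the lower left of each panel, and HORVU2Hr1G009970 is among both.

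In salt roots, whose level in the controls was part of the rule but whose later times were not, no member was called between 1 h and 24 h and several were between 24 h and 10 d. Between 1 h and 24 h, limma called 0 members in either variety, with 2 in NN and 2 in TX at an unadjusted p under 0.05, where 6.11% and 6.64% of all genes were. All but 2 genes in NN and 25 in TX were likewise not called, 0.00896% and 0.112% of 22314. Between 24 h and 10 d, 11 members fell in NN roots, against 12.4% of all genes, and 1 rose, against 10.2%. In TX roots 6 fell, against 4.91%, and 1 rose, against 6.79%. The 6 that fell in TX were among the 11 in NN. The other members were not called, 18 in NN and 23 in TX, although the rule had required all 30 to be lower in leaves of 10 d. The median over the members was -0.78 in NN and -0.02 in TX, against -0.09 and 0.11 over all genes.

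HORVU4Hr1G020030 was the most abundant member in roots, at 1187 and 1061 FPKM in NN and 721 and 853 in TX roots of 24 h. At 10 d it was at 126 and 104 FPKM in NN (-3.28 ± 0.40 (SE), adjusted p = 3.29e-04) and 168 and 179 in TX (-2.17 ± 0.40 (SE), adjusted p = 0.00572). It was also 1 of 2 members with higher mean control levels in roots than in leaves, 835 and 838 against 219.9 and 241 FPKM in NN. Its fall in leaves, to 71.3 and 25.1 in NN and 77.2 and 56.7 in TX, thus came with a fall in roots.

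HORVU2Hr1G009970 fell in roots from 12.96 and 12.1 to 1.11 and 1.17 FPKM in NN (-2.66 ± 0.31 (SE), adjusted p = 2.88e-04) and from 13.3 and 7.46 to 0.465 and 0.341 in TX (-2.97 ± 0.31 (SE), adjusted p = 3.88e-04). The gene next to it by identifier, HORVU2Hr1G009980, went from 7.58 and 4.64 to 0.741 and 0.414 in NN (-2.15 ± 0.33 (SE), adjusted p = 0.00120) and from 6.92 and 5.16 to 0.160 and 0.175 in TX (-2.58 ± 0.33 (SE), adjusted p = 9.60e-04). Both were down in every 10 d root library. HORVU7Hr1G117850 fell by 2.42 on the log2 scale in NN and by 1.63 in TX, HORVU2Hr1G127440 by 1.26 and 1.56, and HORVU1Hr1G004650 by 1.02 and 1.40. The NN call of HORVU2Hr1G127440 was lost without any 1 library, without a filter on low genes and with either rescaling. In TX, HORVU2Hr1G127440 and HORVU7Hr1G117850 were lost without 3 of the 4 libraries and HORVU4Hr1G020030 without 24 h replicate 2, while HORVU2Hr1G009970 and HORVU2Hr1G009980 were called in both varieties under every alternative run.

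A pair of members rose in roots between 24 h and 10 d, each in 1 variety. HORVU2Hr1G118100 was at 5.92 and 3.30 FPKM in TX roots at 24 h and 19.1 and 21.7 at 10 d (1.97 ± 0.38 (SE), adjusted p = 0.00753), after 1.87 and 4.19 in the controls. Its NN roots were at 8.40 and 9.03 and 10.3 and 13.9 FPKM, which was not called (0.41 ± 0.38 (SE), adjusted p = 0.444). HORVU1Hr1G007630 rose in NN roots, from 1.41 and 1.08 to 3.58 and 3.48 FPKM (1.02 ± 0.23 (SE), adjusted p = 0.00789), and TX roots were at 0.596 and 0.399 and 0.250 and 0.305. Both were lower in leaves of 10 d than in the controls by the rule, although between 24 h and 10 d the TX leaves of HORVU2Hr1G118100 overlapped. The difference between the varieties was called for 0 members, with 4 at an unadjusted p under 0.05 (12.7% of all genes), among them HORVU2Hr1G118100 (1.56 ± 0.54 (SE), adjusted p = 0.317) and HORVU1Hr1G007630 (-1.25 ± 0.32 (SE), adjusted p = 0.213). Over all 22314 genes, 0.166% were called for it.

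Root counts moved with single libraries. In NN, 6 members were called without either 10 d library or without 24 h replicate 1, and 4 without 24 h replicate 2. In TX, 9 were called without 10 d replicate 1, 1 of them higher, 8 without 10 d replicate 2, 4 higher and 4 lower, 4 without 24 h replicate 1 and 2 without 24 h replicate 2. Without TX 10 d replicate 2, the difference between varieties was called for 8 members, where it was called for 0 with all libraries or without any of the other 7. The 2 TX libraries of 10 d were unlike for several members, such as HORVU7Hr1G028160, at 18.9 and 0.917 FPKM. Against the control roots, which were part of the rule, a change of -1 or lower at 10 d was found for 17 members in NN, against 18.3% of all genes, and 5 in TX, against 7.89%, given here without a test.

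In the waterlogging controls, many members were more abundant in leaves than in roots. The roots are those of the waterlogged-root criterion, and a fall of 2 in salted leaves needs a high leaf level to begin with, so the rule partly fixes this contrast and it is given as a description. By the thresholds above in a fit over both organs, 15 members were higher in control leaves in NN, against 10.8% of all 24611 genes tested, and 15 in TX, against 12% of all genes. Of these, 13 were the same genes. In neither variety was a member past them in the other direction, against 19% and 21.9% of all genes, but 1 was in NN without leaf replicate 2 or without root replicate 1. The median log2 difference was 1.13 in NN and 1.04 in TX, against -0.37 and -0.35 over all genes. Of the 101 genes with the same salt fall that were not members, 83 were higher in leaves in NN and 80 in TX. Most of those had been left out for low levels in salt control roots. In the salt controls, the leaf mean exceeded the root mean for 28 of the 30.

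The widest gap was that of HORVU0Hr1G003270, at 729 and 698 FPKM in leaves and 0.943 and 1.08 in roots of NN (log2 difference 8.47), and 941 and 589 and 0.456 and 0.266 in TX (log2 difference 9.10). In NN, HORVU1Hr1G007630 followed, with 36.1 and 58.5 against 0.468 and 1.14 FPKM (log2 difference 4.73), and HORVU0Hr1G012860, with 47.5 and 50.4 against 0.474 and 1.74 (log2 difference 4.64). All 3 were near the lower limit of the rule in salt control roots, at 1.29, 1.15 and 2.16 FPKM on average. At the other end, HORVU5Hr1G114090 was at 6.98 and 10.1 FPKM in leaves and 15.6 and 17.3 in roots of NN (log2 difference -0.89), and HORVU4Hr1G020030 at 176 and 40.8 and 135 and 249.5 (log2 difference -1.10). Neither passed the thresholds.

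Root expression in the salt controls was not always found again in the waterlogging controls. Here 10 members were under 1 FPKM on average over the 4 waterlogging control roots. At such levels a fall by more than 1 in log2(FPKM + 1) is hardly possible. For these members the waterlogged-root criterion mainly limited rises and does not show stable root expression. HORVU2Hr1G009970 was at 16.9 and 13.9 FPKM in NN and 6.64 and 6.04 in TX roots of the salt controls, and at 0.178 and 0.0622 and 0.126 and 0 in those of the waterlogging controls. HORVU7Hr1G117850 was at 10.2 and 6.36 and 1.56 and 4.61 FPKM, against 0 and 0 and 0.113 and 0.0275. For both, every salt control was above every waterlogging control. The tables of the 2 experiments were taken as normalised apart, and the difference was not tested.

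**Figure D3:**
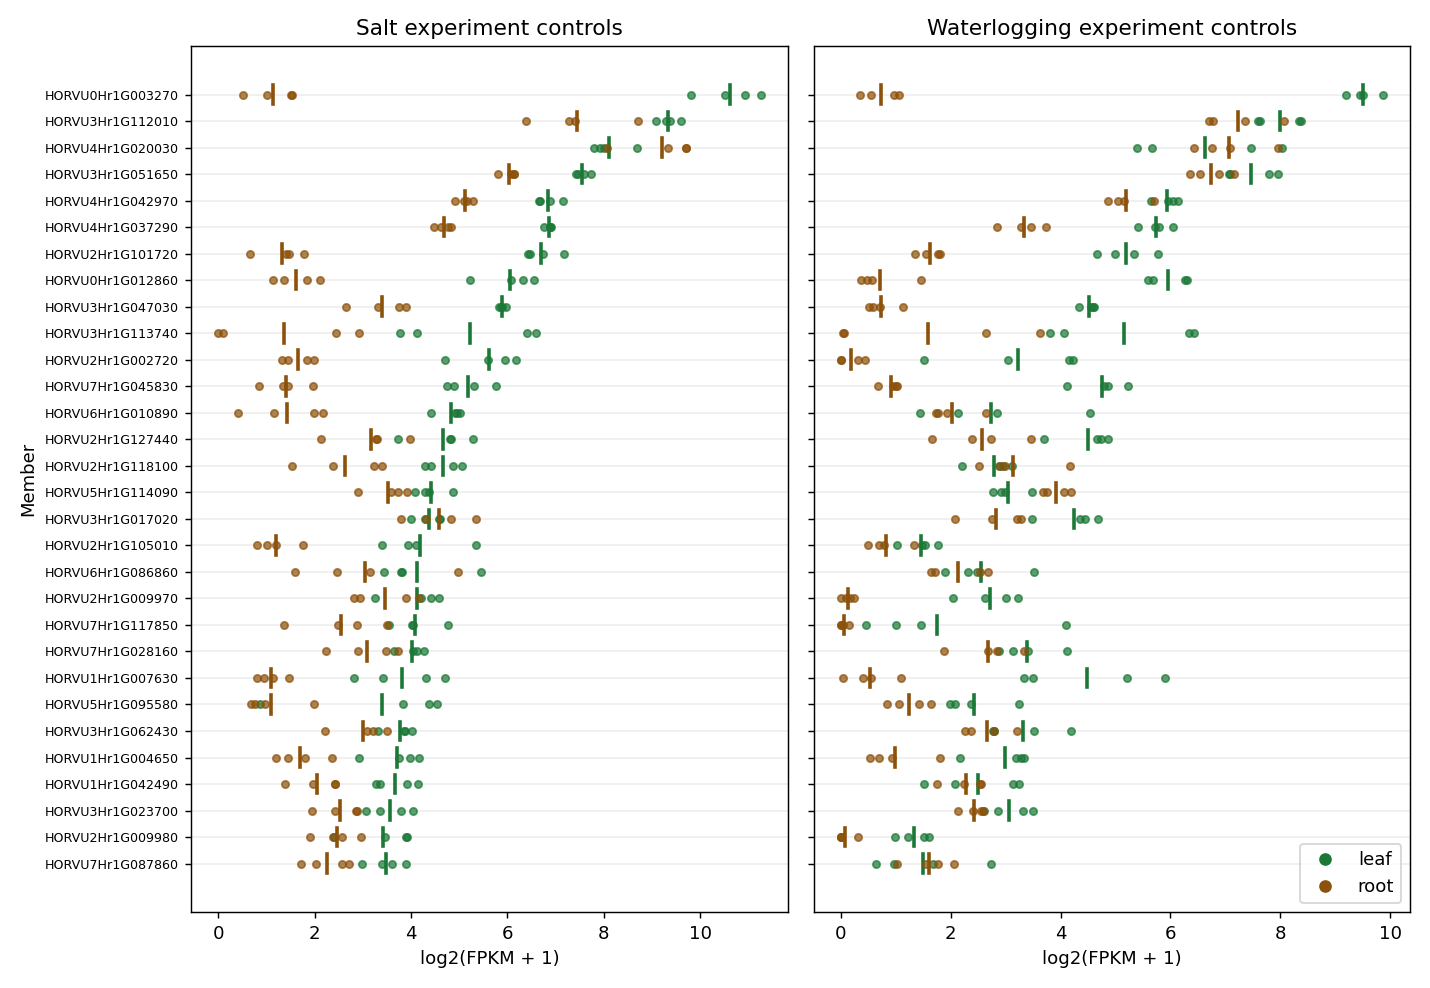
Levels of the 30 members in unstressed leaves (green) and roots (brown) as log2(FPKM + 1), in the salt (left) and waterlogging (right) experiments. Points are the 4 libraries of an organ (2 of NN and 2 of TX), bars their mean, and members are ordered by the salt control leaf level. HORVU0Hr1G003270, at the top, has the widest gap, and some root points of the right panel lie at 0.

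In the waterlogging controls, leaves of the 2 varieties differed by the thresholds for 1 member. By limma, 5 members had an unadjusted p under 0.05, all lower in TX, where 4.61% of all genes had one. HORVU3Hr1G113740 was at 85.7 and 80.3 FPKM in NN and 12.98 and 15.7 in TX leaves (log2 difference of TX from NN -2.46 ± 0.40 (SE), adjusted p = 0.0111), where 0.533% of all genes were called lower in TX and 0.571% higher. Its libraries of the 2 varieties did not overlap, and the salt control leaves, given above, had the same order. It was not called when any 1 of the 4 control libraries was left out or with median-ratio scaling, nor when the 5 leaf libraries rich in ENSRNA rows, none of them a control, were left out. In roots it was at 5.23 and 11.3 FPKM in NN controls and 0.0315 and 0.0459 in TX controls.

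No member was called lower in leaves of waterlogged plants at any time sampled. At 2 w, limma called 0 members in either variety, with 7 in NN, all lower, and 4 in TX, 3 of them lower, at an unadjusted p under 0.05, where 13% and 10.1% of all genes were. Over all 21378 genes, 0.655% were called in either direction in NN and 0.192% in TX. The median change of the members was -0.13 in NN, with a range from -2.25 to 1.98, and -0.23 in TX, from -1.26 to 1.05, against 0.12 and 0.00 over all genes. The difference between varieties was called for 0 members, with 1 at an unadjusted p under 0.05 (2.17% of all genes), and for 0% of all genes. The lowest value was that of HORVU1Hr1G007630 in NN, at 36.1 and 58.5 FPKM in controls and 5.64 and 13.7 at 2 w (-2.25 ± 0.54 (SE), adjusted p = 0.0929). In TX it was at 9.10 and 10.3 and 9.03 and 4.44. HORVU2Hr1G127440 was under its controls in every library of 2 w, at 11.97 and 24.2 and then 4.71 and 10.2 FPKM in NN (-1.18 ± 0.40 (SE), adjusted p = 0.219) and 28.2 and 25.8 and then 9.05 and 12.6 in TX (-1.26 ± 0.40 (SE), adjusted p = 0.243). The spread between replicates in these leaves was wide, with a standard error of the log2 change from 0.27 to 2.28 over the members (median 0.50), so that for most of them a change of 1 was not detectable.

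At 72 h of waterlogging the direction of the only call was the opposite. HORVU5Hr1G095580 was at 2.95 and 8.42 FPKM in NN control leaves and 97.3 and 48.6 at 72 h (3.52 ± 0.41 (SE), adjusted p = 0.00410), and at 3.22 and 4.16 and then 34.6 and 44.00 in TX (3.10 ± 0.41 (SE), adjusted p = 0.00551). Every library of 72 h was above all 12 others of waterlogging leaves. The level was 6.07 and 6.63 FPKM at 1 h and 4.20 and 4.67 at 2 w in NN, so the rise was present at 72 h alone among the times sampled. Of all genes, 0.196% were called higher in NN and 0.365% in TX. In NN both libraries of 72 h had over 10% of FPKM in ENSRNA rows and nothing could be computed without them. In TX the call was lost without the ENSRNA-rich libraries, without control replicate 1 and without 72 h replicate 2. In roots the same gene stayed between 0.203 and 2.40 FPKM in the 16 waterlogging libraries.

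**Figure D4:**
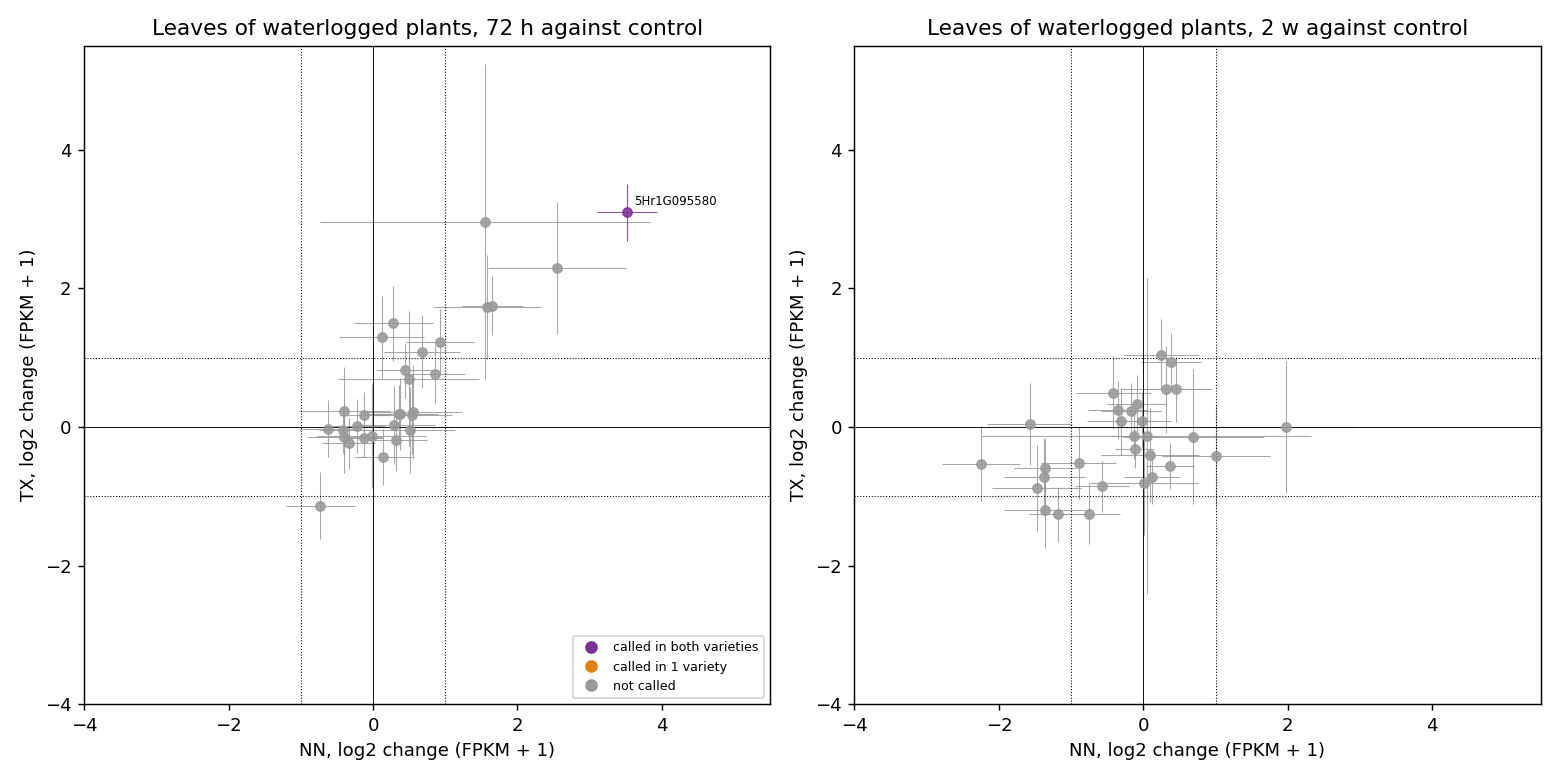
Log2 change of each member against control in leaves of plants waterlogged for 72 h (left) and 2 w (right), NN on the x axis and TX on the y axis, with standard errors and dotted lines at changes of 1. HORVU5Hr1G095580, at the upper right at 72 h, is the only member called, the other members to the upper right have wider errors, and at 2 w the members scatter around 0.

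At 72 h the other 29 members were not called in either variety, with 3 members in NN and 7 in TX at an unadjusted p under 0.05 (10.5% and 13.3% of all genes), the called one included. HORVU7Hr1G028160 came closest, at 6.37 and 16.4 FPKM and then 45.6 and 26.1 in NN (1.65 ± 0.42 (SE), adjusted p = 0.140), and 7.75 and 9.61 and then 25.9 and 37.98 in TX (1.75 ± 0.42 (SE), adjusted p = 0.0753). All 4 libraries of 72 h were above the 4 controls. At 1 h, limma called 0 members in either variety, with 6 in NN and 5 in TX at an unadjusted p under 0.05 (13.8% and 11.3% of all genes), and it called 0.744% and 0.716% of all genes. HORVU2Hr1G118100 was lower than in the controls in every library of 1 h, at 0.984 and 1.44 FPKM in NN and 2.71 and 2.59 in TX, against 3.61 and 7.70 and 6.75 and 6.31.

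Some members differed more between replicates of waterlogging leaves than between treatments. HORVU7Hr1G117850 was at 16.1 and 1.01 FPKM in NN controls, 82.6 and 0.763 at 1 h, 2.43 and 84.8 at 72 h and 35.6 and 0 at 2 w. In TX it was at 0.381 and 1.76, 23.2 and 34.8, 62.9 and 2.64, and 1.27 and 0.408 FPKM. Its replicates were more than 2 apart on the log2 scale in 5 of the 8 groups, and up to 5.57 apart. In 4 other members, HORVU6Hr1G010890, HORVU2Hr1G101720, HORVU1Hr1G042490 and HORVU7Hr1G045830, the replicate with the higher HORVU7Hr1G117850 was also the higher one in all 8 groups, and in HORVU4Hr1G020030 it was in 7 of 8. Other members went the opposite way. That replicate was the higher one in 0 of 8 groups for HORVU2Hr1G127440. It was so in 1 of 8 for HORVU5Hr1G095580, HORVU7Hr1G087860, HORVU1Hr1G004650, HORVU5Hr1G114090, HORVU7Hr1G028160 and HORVU3Hr1G051650. These genes were picked out after their values were seen. HORVU2Hr1G101720, for instance, was at 27.4 and 75.96 FPKM in NN and 82.9 and 26.95 in TX leaves of 72 h. Over all members, replicates were more than 1 apart in 21.7% of the 240 pairs in waterlogging leaves, where 18.5% of the pairs over all genes were, and in 8.75% in salt leaves, where it was 5.56%. These shares are a description, without a test.

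In waterlogging roots the rule had fixed the 72 h level near the controls, so the comparison made was 2 w against 1 h. Of the 30 members, 27 were tested, since HORVU7Hr1G117850, HORVU2Hr1G002720 and HORVU0Hr1G012860 did not reach 0.5 FPKM in at least 2 of the 16 libraries. In NN, 6 members fell, against 14.1% of all 22022 genes, and 3 rose, against 8.2%. In TX, 7 fell, against 12.6%, and 0 rose, against 8.29%. The same 5 members fell in both. HORVU2Hr1G127440 had the largest falls, from 3.71 and 2.29 FPKM to 0.113 and 0.197 in NN (-1.77 ± 0.38 (SE), adjusted p = 0.00389) and from 3.35 and 5.73 to 0.418 and 0.320 in TX (-1.98 ± 0.38 (SE), adjusted p = 0.00254). It was at 5.62 and 10.1 FPKM in NN controls, so the level of 2 w was below these as well.

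HORVU2Hr1G009970 was high at 1 h only. It was at 0.178 and 0.0622 FPKM in NN control roots, 2.47 and 1.73 at 1 h, 0.341 and 0.243 at 72 h and 0.0219 and 0.179 at 2 w, and the fall from 1 h to 2 w was -1.49 ± 0.17 (SE), adjusted p = 1.43e-04. In TX it was at 0.126 and 0, 2.57 and 3.11, 0.311 and 0.167 and 0.205 and 0 FPKM (-1.80 ± 0.17 (SE), adjusted p = 7.11e-05). All 4 libraries of 1 h were above all 12 others. HORVU2Hr1G105010, HORVU3Hr1G112010 and HORVU7Hr1G028160 also fell in both varieties, by 1.19, 1.72 and 1.72 on the log2 scale in NN. The 3 that rose in NN were HORVU6Hr1G086860 (1.19), HORVU5Hr1G095580 (1.15) and HORVU3Hr1G051650 (1.07), in log2 units. In TX, 3 members were called without 1 h replicate 2, 4 without 2 w replicate 2 and 8, 1 of them higher, without 1 h replicate 1, the root library rich in ENSRNA rows. Against the controls the rule had used, a change of -1 or lower at 2 w was found for 8 members in NN, against 8.51% of all genes, and 6 in TX, against 7.03%, with no test.

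The only pair of members that were neighbours by identifier was HORVU2Hr1G009970 and HORVU2Hr1G009980, whose numbers differ by 10. No other member had a second one within 50, where 99.4% of all HORVU genes have another gene of any kind within 50. Across the 64 libraries, which share organ, treatment and depth, Pearson's r between their log2 values was 0.96, as a description. In the 36 libraries with both at 1 FPKM or more, the first was a median 2.28 times as high as the second, with a range from 1.32 to 4.53. Both were lower at 24 h and 10 d in salt leaves and at 10 d in salt roots, and higher at 1 h in waterlogged roots, than at the other times. Near-identical neighbouring copies can share reads, and how the counting treated such reads is not stated, so the pair may not count as 2 independent members.

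**Figure D5:**
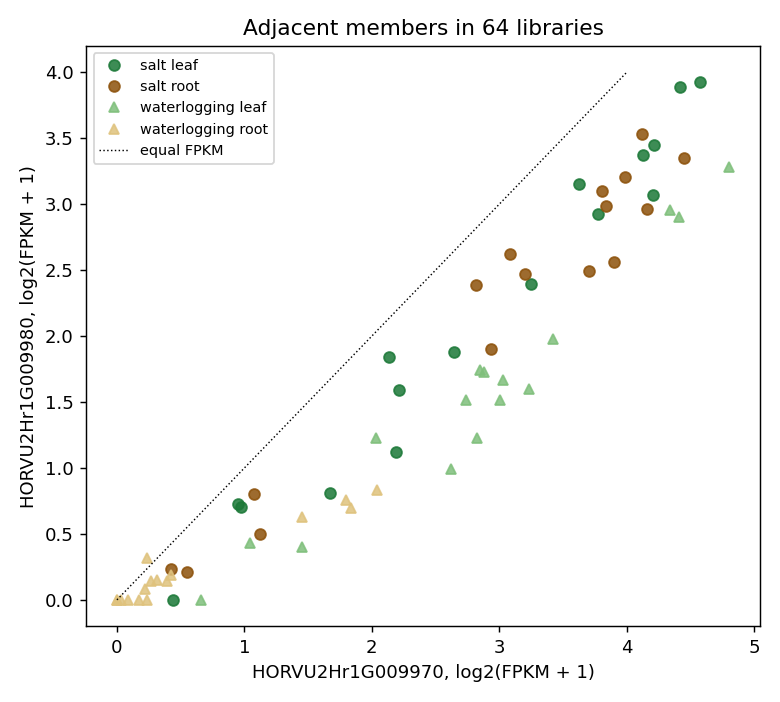
Expression of HORVU2Hr1G009980 against HORVU2Hr1G009970 as log2(FPKM + 1) in all 64 libraries, with circles for the salt and triangles for the waterlogging experiment, green for leaves and brown for roots. The points lie below the dotted line of equal FPKM in nearly all libraries, and rise together.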

How the data were processed

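The authors deposited FPKM, in 1 table per experiment, from oligo(dT)-selected, strand-marking libraries. The submitters' notes list HISAT, HISAT2 and featureCounts 1.5.0. No build or annotation is named in the sources used here. In addition, 82 value columns were left unused. The study's methods state more replicates than the 2 per group held by the labels. The tables of the 2 experiments were taken as normalised apart.

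Libraries were grouped by variety, organ and time. limma 3.58.1 (R 4.3.3) was fitted on log2(FPKM + 1) with trended empirical Bayes, per experiment and organ (8 group means, 16 libraries), and over all 32 waterlogging libraries for leaf against root. Genes reaching 0.5 FPKM in 2 or more libraries were tested, with Benjamini-Hochberg adjustment over all of them, and called where that p was under 0.05 and the log2 change exceeded 1 in size. The fit was tested on simulated data. Depth is unknown, and FPKM is no count, so no count test was run. A change on this scale understates that of low genes.

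The members and lists were chosen with earlier results of these data known. The contrasts that the rule used were described without a test. Waterlogging control leaf against control root, whose root libraries the rule used, was fitted, and its counts are given as a description. Members were named by rule: the 10 with the strongest weaker leaf fall, the 5 highest in salt control leaves, up to 5 called in both varieties for 3 comparisons, and neighbours. Others named were chosen after their values were seen. Alternatives were another pseudocount, no filter, 2 rescalings, a replicate block, leaving out replicates and leaving out ENSRNA-rich libraries. Gene-list counts were not made, for want of names.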

Additional observations from a re-analysis of the deposited data

Results flagged for a closer look

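A pair of members had log2 differences of opposite sign in the varieties, with no overlap between the libraries compared. In neither case was the difference between the varieties tested. HORVU6Hr1G010890 changed by -1.43 on the log2 scale between 1 h and 24 h in NN salt leaves, which was called, and by 0.53 in TX, which was not. In NN it was at 28.6 and 13.5 FPKM at 1 h and 4.82 and 9.18 at 24 h, and in TX at 6.02 and 7.82 and then 11.7 and 9.13. NN 1 h replicate 1, the highest of these values, is the library with TX-typical genes. Both NN libraries of 1 h were above both TX libraries of 1 h, and the change of this member without that library is not given here. The log2 difference of HORVU6Hr1G086860 between leaves and roots of waterlogging controls was 1.03 in NN and -0.21 in TX. In NN its leaves were at 2.73 and 10.4 FPKM and its roots at 2.26 and 2.12. In TX the leaves were at 3.99 and 4.58 and the roots at 5.43 and 4.78. The TX difference was thus small, and 1 NN leaf library was close to the roots.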

How the results depend on the processing

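Leaving out 1 replicate gave 2 to 10 called members for salt leaf 24 h against 1 h in NN and 2 to 3 in TX, 4 to 6 and 2 to 9 for salt root 10 d against 24 h, 0 to 8 for its difference between varieties, 0 to 1 for waterlogging leaf 72 h in TX, 0 for the control leaf difference between varieties, 6 to 8 and 3 to 8 for waterlogging root 2 w against 1 h, and 25 to 50 members by the rule. Without a filter, 3 members were called for salt leaf 24 h against 1 h in TX. Without the ENSRNA-rich libraries, 0 were called for waterlogging leaf 72 h in TX and 0 for the control leaf difference, which was also 0 with median-ratio scaling. With a pseudocount of 0.1, 74 genes met the rule, 22 of them among the 30, and with median-ratio scaling 26, of which 23 were. The causes were not tested. For the 5 members followed singly in each variety for salt leaf 24 h against 1 h and salt root 10 d against 24 h, no direction was reversed.

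Replicate numbers were not taken as pairs in the main fits. Of 28 pairs of groups, 4 in salt leaves and 10 in salt roots had deviations correlated above 0.1. In waterlogging leaves and roots it was 11 and 13. Such counts cannot exclude pairing, and the correlations ran from -0.68 to 0.64 in waterlogging leaves. With the replicate block, 8 and 6 members were called for salt leaf 24 h against 1 h and 11 and 8 for salt root 10 d against 24 h in NN and TX, and no count moved by over 1.5 times. The block lost the calls of HORVU2Hr1G101720 in TX salt leaves and of HORVU2Hr1G127440 in NN salt roots. With 2 replicates and unknown depth, small changes and members near 1 FPKM are poorly resolved.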
